A study of Mus musculus with 36 samples.

Results

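The third day after removal of leukemia inhibitory factor (LIF) was compared with the first in mouse embryonic stem cells that carry Oct4:eGFP, a green fluorescent reporter of the gene Pou5f1 (Oct4). The comparison used 6 of the 18 RNA samples of the series and 12 of its 36 arrays. The day 3 group held 3 samples, sorted after trypsin treatment into high, medium and low reporter gates, and the day 1 group held 3 samples from the same gates. Both groups grew in serum medium without LIF and without added retinoic acid (RA), on gelatin, after maintenance with 1000 U per mL LIF on mitomycin-treated embryonic fibroblasts. Plating density moved with the day, at 3500000 cells per dish for 1 day of differentiation and 1000000 for 3 days. The cells were a single reporter line, each gate of a day was a single sample, and the labels do not say that the days were separate cultures. The 3 gates therefore stood in for replicates, and the p-values speak only of the differences among these samples, part of which may be technical. Day 1 held another sample, high gate replicate 2, that was left out by the rule of the comparison because it looks exposed to RA (the doubted library). It measured 463 for Cyp26a1, the RA-clearing enzyme, against 13.8, 12.8 and 11.3 in the other 3, and it stood apart from them in 31 of the 126 genes named by rule. Most of those genes were named through a fit without this library, which favours such a count.

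LIF acts through its receptor and the transcription factor STAT3 to hold mouse embryonic stem cells in the naive state, which resembles the epiblast of the blastocyst. When LIF is withdrawn, naive factors such as Zfp42, Klf4 and Nr0b1 are lost early, while the core factors Pou5f1, Sox2 and Nanog can persist as cells pass through a state like the postimplantation epiblast. Later, cells turn towards the germ layers and extraembryonic endoderm and acquire epithelial or mesenchymal structure.

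Each RNA sample was amplified in 2 rounds and hybridised to both chips (A and B) of an Affymetrix mouse set (MG_U74av2 and MG_U74bv2), on which each probe set is a group of short probes for 1 transcript. Signals are linear MAS5 intensities, changes are day 3 minus day 1 on the log2 scale after adding a small constant, and the figure after ± is the standard error from the fit, with 3 samples a day. A change past the test has a Benjamini-Hochberg adjusted p under 0.05 in limma, with the gate as a block. The number of arrays limits the precision, and the median probe set's 95% interval reached 0.387 log2 units to either side. Detection calls were not analysed here, so a very low signal is given as measured. Where a gene has fewer transcripts, fewer cells with it and less RNA per cell cannot be told apart in these bulk samples.

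All 6 day 3 arrays were scanned on a different day from the 6 day 1 arrays and came from other chip lots, so scan day, lot and day of differentiation cannot be told apart in this comparison. The day 5 samples without LIF were scanned with the day 1 samples (on chip B from another lot) and are given beside the results, with the reminder that both changes are taken from the same day 1 libraries. The 3′ over 5′ ratio of Gapdh (log2), which is higher in shortened RNA, was lower at day 3 than at day 1, with means of 0.7013 and 0.9624 on chip A and 0.6026 and 1.149 on chip B. The groups did not overlap on either chip (two-sided exact permutation p = 0.1, the smallest that 3 against 3 allows, and 0.2 after adjustment over 4 tests). For Actb the difference was -0.121 on chip A and -0.305 on chip B (exact permutation p, two-sided, of 0.3 and 0.2). The median signal lay between 46.3 and 47.4 on the day 3 arrays of chip A and between 37.7 and 41.1 at day 1, and between 72.9 and 73.8 against 65.5 and 67.9 on chip B. The part of RNA quality in the results was not tested. That of array brightness was not tested beyond a quantile normalization, whose counts are given below.

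Of 14901 probe sets tested, 949 were higher at day 3 (6.37%) and 505 were lower (3.39%). Of 9833 genes, each taken by 1 probe set, 685 rose (6.97%) and 402 fell (4.09%), and 230 of the rises and 114 of the falls reached 2-fold. All 1087 of these genes had moved the same way in each of the 3 gates. Over all genes the median change was 0.05. The shares of 6.97% higher and 4.09% lower are the ones to set beside each list count below. A single rise or fall within a list describes that gene and not the list. After quantile normalization the split was 515 higher and 539 lower, with the direction unchanged for all 1453 called probe sets that were still measured. Leaving out any 1 gate pair left 277 to 294 probe sets higher and 119 to 158 lower. With the doubted day 1 library kept in, 3 were higher and 1 lower, and no gene of any list below was past the test. For that reason every count below rests on leaving that library out.

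Pluripotency factors fell to different depths. All 6 changed members of the 11 core factors fell, by 0.62 to 0.93, whereas 13 of the 15 measured naive factors fell, by 0.64 to 3.71. The median change was -0.62 for the core list and -1.59 for the naive list, against 0.05 over all genes. No member of either list rose.

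Pou5f1, the factor whose regulatory sequence drives the reporter, had signals of 2523, 2408 and 2322 in the high, medium and low gates at day 1 and 1602, 1662 and 1247 at day 3. The day 3 libraries lay below all day 1 libraries, with a change of -0.69 ± 0.13 (adjusted p = 0.0209). At day 3 the low gate had the lowest Pou5f1 signal, and at day 1 the gates were ordered as sorted but lay close together. In the 3 control libraries with LIF the signals were 2823, 2388 and 2458. Sox2, its partner on DNA, went from 3268, 2944 and 3051 to 1993, 2023 and 1987, a change of -0.62 ± 0.11 (adjusted p = 0.0209). Nanog, the homeobox factor of the same circuit, went from 1619, 1565 and 1949 to 1039, 912 and 1083, a change of -0.75 ± 0.12 (adjusted p = 0.0146). For all 3 factors the days did not overlap, and their losses were 1.62-, 1.54- and 1.69-fold. Utf1, a chromatin-associated factor of undifferentiated cells, fell by 0.93 ± 0.13 (adjusted p = 0.0114), and Dppa2 and Dppa4, a pair of DNA-binding proteins of early embryos, fell by 0.88 and 0.62. Lin28a, the RNA-binding protein that blocks let-7 processing, changed by 0.11 (adjusted p = 0.654) and Tdgf1, the Nodal co-receptor, by 0.39 (adjusted p = 0.0999), neither past the test.

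The naive factor Nr0b1 (Dax1), a nuclear receptor without a DNA-binding domain, had the largest fall among the genes past the test. Its signals were 958, 756 and 700.4 at day 1 and 54.3, 61.3 and 55.7 at day 3, a 13.1-fold loss (log2 change -3.71 ± 0.15, adjusted p = 0.000967). Controls with LIF measured 959, 701 and 686, so day 1 still lay at the control level and the drop fell between days 1 and 3. Zfp42 (Rex1), the zinc finger protein used as a marker of the naive state, went from 955, 764 and 901 to 159, 182 and 218 (-2.21 ± 0.15, adjusted p = 0.00206). Klf4, a LIF-responsive factor, went from 234, 259 and 271 to 57.7, 75.6 and 125 (-1.59 ± 0.19, adjusted p = 0.00748), with its smallest loss in the low gate. Its control signals of 1061, 476 and 847 lay above all of these. Jam2, a junctional adhesion molecule, fell by 2.28 ± 0.16, Tcl1, a coactivator of Akt, by 1.88, and Fbxo15, an F-box protein that Oct4 and Sox2 activate, by 1.76 ± 0.14. Tfcp2l1, Dppa3, Klf2, Nr5a2, Fgf4, Dppa5a and Klf5 fell by 1.68, 1.59, 1.34, 1.28, 0.96, 0.75 and 0.64. Gdf3, a TGF-beta ligand, changed by -0.48 (adjusted p = 0.0534) and Pecam1, an adhesion molecule, by 0.09 (adjusted p = 0.661). Esrrb and Tbx3 were not measured, that is, no probe set assigned to either gene alone was among those tested.

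**Figure D1:**
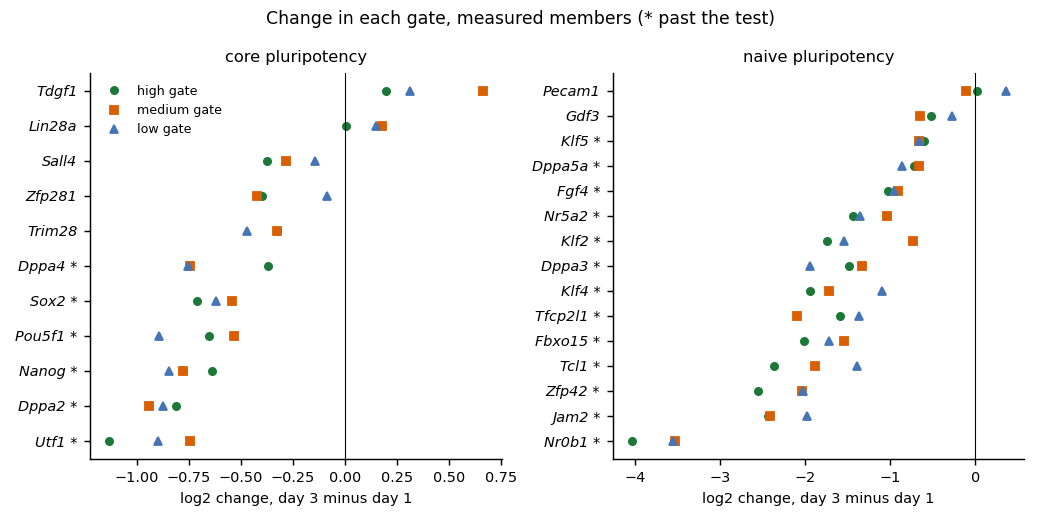
Change from day 1 to day 3 (log2, horizontal axis) of each measured member of the core (left) and naive (right) pluripotency lists in the high, medium and low gates. Points are single differences between a day 3 and a day 1 library, stars mark genes past the test, and the naive members reach -3.71 on average at Nr0b1.

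At day 5 the core factors were further below day 1, at -1.82 for Pou5f1, -2.31 for Sox2 and -1.63 for Nanog. Nr0b1 was at -4.19 and Zfp42 at -3.10. Klf4 was at -0.43, with signals of 173, 176 and 218, which lie above its day 3 signals. The plot of signals by day shows these courses.

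**Figure D2:**
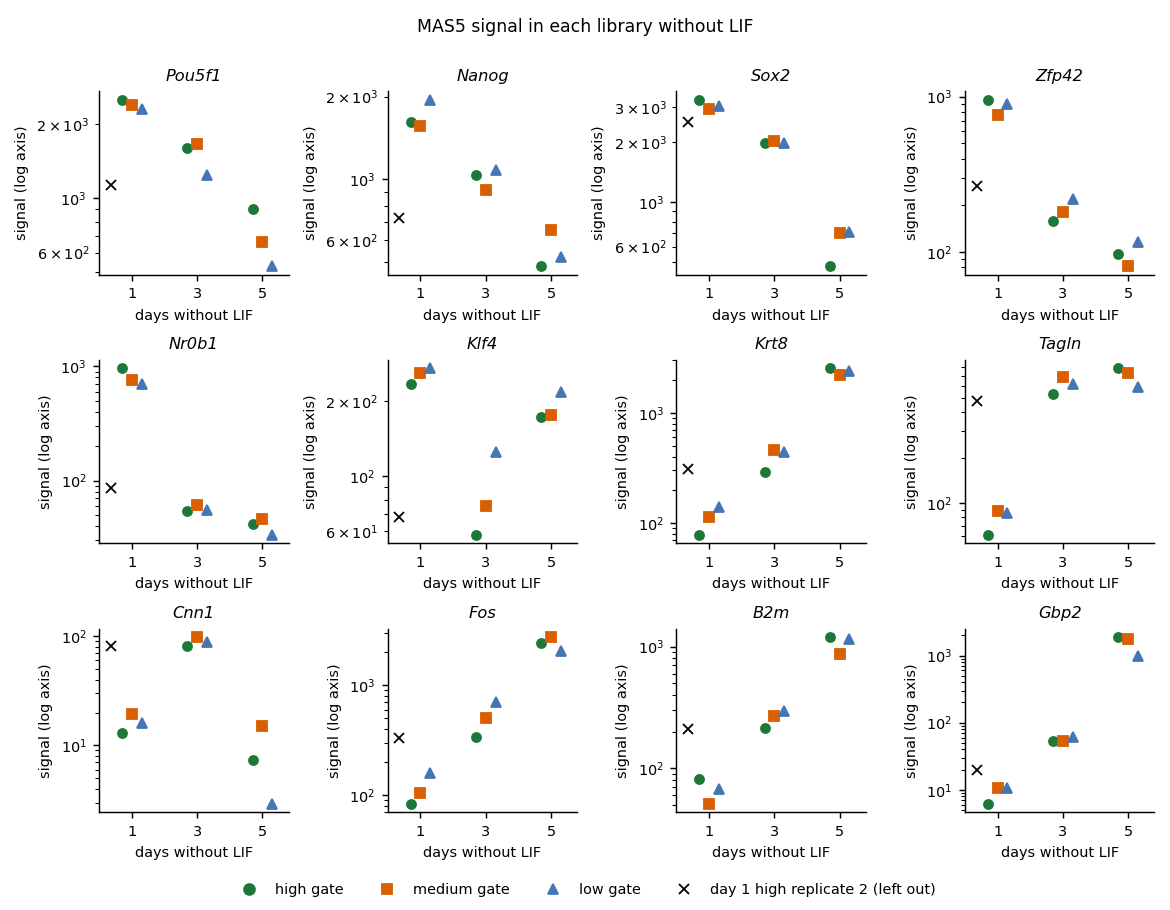
MAS5 signal (log axis) of 12 genes in every library without LIF at 1, 3 and 5 days, by gate. Each symbol is a single library, the cross is the day 1 library that was left out, and the day 3 signals of Nr0b1 lie between 54.3 and 61.3.

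The LIF pathway moved in both directions. Of 15 measured receptors, kinases and targets, 4 rose and 3 fell, with a median change of 0.07. Both receptor chains fell. Lifr, which binds LIF, went from 133, 111 and 152 to 74.3, 70.0 and 83.3 (-0.76 ± 0.12, adjusted p = 0.0142), and Il6st (gp130), the shared signalling chain, from 104, 108 and 133 to 62.8, 70.2 and 90.2 (-0.61 ± 0.11, adjusted p = 0.0216). The days did not overlap for either chain. Bcl3, a nuclear partner of NF-kappaB and a STAT3 target, went from 54.5, 49.8 and 81.7 to 16.4, 14.3 and 14.0 (-1.78 ± 0.18, adjusted p = 0.00476), against 143, 158 and 151 in controls and 123, 85.9 and 91.1 at day 5. It was thus at its lowest at day 3 among these arms. Socs3, the feedback inhibitor that STAT3 induces, measured 77.4, 108 and 94.3 at day 1 and 70.9, 70.3 and 75.3 at day 3, a difference of -0.34 ± 0.14 that did not pass the test (adjusted p = 0.133). The 4 rises were Ier3 (0.87), an early response gene, Junb (0.71), a subunit of AP-1, Pim1 (0.65), a survival kinase, and Jak2 (0.50), a receptor kinase. Stat3 (0.07), Myc (0.01), Cish (0.01) and Socs2 (0.04) did not pass.

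Markers of the postimplantation epiblast rose in part. Of 13 measured, 4 rose and 1 fell, with a median of 0.47. Pou3f1 (Oct6), a POU factor of epiblast and neural precursors, went from 45.4, 55.1 and 38.9 to 82.4, 72.8 and 59.2 (0.58 ± 0.13, adjusted p = 0.037) and stood at 32.6, 17.8 and 35.7 at day 5. Its day 3 signals lay above those of both other days in every gate. Sox3, a relative of Sox2, rose by 1.00 and was at -0.38 at day 5, and Cldn6, a tight junction claudin of embryonic epithelium, rose by 1.19 ± 0.14 and Sox4 by 0.67 ± 0.13. Dnmt3b, the de novo DNA methyltransferase of the epiblast, measured 2959, 2929.9 and 3058 at day 1 and 3492, 2846 and 1864 at day 3, where it was highest in the high gate and lowest in the low gate. Its difference of -0.17 ± 0.23 was not past the test (adjusted p = 0.671). Tcf15, a helix-loop-helix factor of cells primed to leave the naive state, fell by 0.84 ± 0.12. Fgf5 and Foxd3 were not measured, and Otx2 was not analysed here.

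Germ layer markers moved in both directions. Of 8 measured genes that mark the streak or early mesoderm, 2 rose and 1 fell. Wnt3, the ligand that starts the streak, went from 23.7, 20.5 and 24.1 to 97.3, 78.4 and 84.1, a 3.37-fold rise (1.75 ± 0.12, adjusted p = 0.00198). It was at 247, 252 and 226 at day 5. Hand1, a helix-loop-helix factor of mesoderm and trophoblast, rose by 0.83 ± 0.21 (adjusted p = 0.0455). Bmp4, a ligand that patterns the mesoderm, fell from 116, 212 and 196 to 78.9, 87.7 and 69.5 (-1.07 ± 0.20) and stood at 436, 435 and 505 at day 5, above both. Eomes (0.88, adjusted p = 0.193), Lhx1 (0.65) and Tbx6 (-0.09) were not past the test, and Mesp1, Gsc, Evx1 and Kdr were not measured. Of 10 neural genes, 2 rose and 2 fell. Nes (nestin), the intermediate filament of progenitors, went from 53.9, 81.6 and 71.5 to 296, 289.7 and 262 (1.99 ± 0.16, adjusted p = 0.00273), and Cdh2 (N-cadherin) rose by 0.82. Mapt (tau), a microtubule-binding protein, fell from 146, 165 and 129 to 6.54, 8.28 and 30.5. Sox1 (0.51) and Pax6 (0.34) did not pass. Of 9 measured Hox genes Hoxb7 alone passed, with a rise of 0.79 ± 0.17.

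Of 20 measured genes of extraembryonic endoderm, 6 rose and none fell, with a median of 0.35. Dab2, an endocytic adaptor of primitive endoderm, went from 20.9, 54.4 and 96.1 to 95.3, 101 and 327 (1.52 ± 0.23, adjusted p = 0.0142) and was highest in the low gate on both days. Col4a1, a chain of basement membrane collagen, went from 42.7, 68.5 and 81.9 to 114, 174 and 343 (1.55 ± 0.17), with the same order of gates. Plat, the tissue plasminogen activator, rose by 1.51, Fst (follistatin) by 1.24, Col4a2 by 0.83 and Cited1 by 0.80. The factors that define the lineage were not past the test, with differences of 0.31 for Gata4, 0.27 for Gata6, 0.24 for Sox17 and 0.04 for Sox7. Gata6 measured 15.1, 17.7 and 17.5 at day 1 and 23.1, 16.2 and 24.6 at day 3, and the groups overlapped. Of 7 trophoblast genes, Hand1 rose and Tfap2c, an AP-2 factor, fell by 0.91.

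Of 17 measured genes of simple epithelium 9 rose and none fell, with a median of 0.80. Keratins, the intermediate filaments of such epithelium, led the list. Krt8 went from 77.3, 113 and 138 to 288, 460.4 and 437 (1.82 ± 0.13, adjusted p = 0.00206), its partner Krt18 from 53.2, 77.2 and 83.8 to 236, 333 and 316 (2.00 ± 0.12, adjusted p = 0.00167), and Krt19 from 20.5, 43.0 and 32.4 to 152, 171 and 192 (2.33 ± 0.17, adjusted p = 0.00224). In each of these the lowest signal at day 3 exceeded the highest at day 1, and the high gate was lowest on both days. Krt7 rose by 1.21. Among junction genes, the claudins Cldn7 and Cldn3 rose by 1.75 and 0.68, the desmosome components Dsp and Perp by 1.57 and 1.35, and the adhesion molecule Epcam by 0.60. E-cadherin (Cdh1) differed by 0.30 (adjusted p = 0.143), and Cldn4 by -0.55 (adjusted p = 0.0506). At day 5 Krt8 was at 2535, 2201 and 2417 and Krt19 at 5.28 above day 1 on the log2 scale.

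Signalling genes moved at several levels. Among 25 measured members of the Nodal, activin and BMP pathway, 6 rose and 2 fell, with a median of 0.39. The Id proteins, helix-loop-helix inhibitors and direct BMP targets, rose: Id1 from 158, 166 and 130.2 to 459.5, 557 and 316 (2.82-fold, adjusted p = 0.00348), Id2 by 1.18 ± 0.13 and Id3 by 0.61. The activin antagonist Fst (1.24), the receptor Acvr2a (0.51) and the Smad partner Foxh1 (0.64) rose, while the ligand Bmp4 and Skil, a repressor of Smad signalling, fell, Skil by 0.87. Nodal itself (0.30, adjusted p = 0.23) and Lefty1 (0.10) did not pass. Bmp4 and the Id genes thus had opposite signs at day 3.

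In the Wnt pathway 5 of 20 rose and 1 fell, with a median of 0.08. Wls (Wntless), which carries Wnt ligands to the cell surface, went from 18.4, 17.6 and 11.1 to 99.7, 109 and 142, a 6.16-fold rise (2.62 ± 0.22, adjusted p = 0.00323). The ligands Wnt3 and Wnt8a rose by 1.75 and 0.97. The receptor Fzd2 rose by 1.23 ± 0.14, and another, Fzd5, fell from 569, 533 and 572 to 161, 179 and 261 (-1.47, adjusted p = 0.0426). Sfrp2, a secreted Wnt antagonist, rose from 70.2, 76.1 and 78.8 to 134, 169.9 and 168 and was at 51.7, 68.7 and 56.9 at day 5. The target Axin2 (0.29) and Lef1 (-0.29) were not past the test.

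The FGF and ERK list had 1 rise and 1 fall among 16 members and a median of -0.09. These counts are near the shares over all genes, 6.97% higher and 4.09% lower. The ligand Fgf4, which embryonic stem cells secrete, went from 1367, 1282 and 1106 to 671, 680.0 and 566 (-0.96 ± 0.11, adjusted p = 0.00733). Dusp6, the ERK phosphatase and ERK target, rose from 186, 170.4 and 195 to 274, 242 and 469.5 (0.76 ± 0.18), while Spry2 (-0.85), Spry4 (-0.13), Etv5 (-0.75) and Etv4 (0.32) did not pass. Among 10 genes of retinoid metabolism and response, 3 rose and 2 fell. Cyp26a1 measured 13.8, 12.8 and 11.3 at day 1 and 24.8, 19.1 and 23.2 at day 3 (0.66 ± 0.13, adjusted p = 0.0239). Its day 5 signals were 1622, 1667 and 1438. With the doubted library kept in the direction turned, to -0.28 ± 1.13. Dhrs3 and Crabp2, a retinal reductase and a binding protein for RA, rose by 0.83 and 0.53, and the receptor Rarg fell from 285, 248 and 233 to 103, 149 and 126 (-1.01 ± 0.17). Stra8, which RA induces, fell by 0.66, at signals of at most 6.33 in these 6 libraries. The brightness filter was taken over all 18 libraries, and Stra8 measured 279 to 361 in those with RA. Its fall rests on the added constant and was -1.15 at a constant of 1. At the larger constant of 0.4 of the median it was -0.23, no longer past the test (adjusted p = 0.171 in limma).

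**Figure D3:**
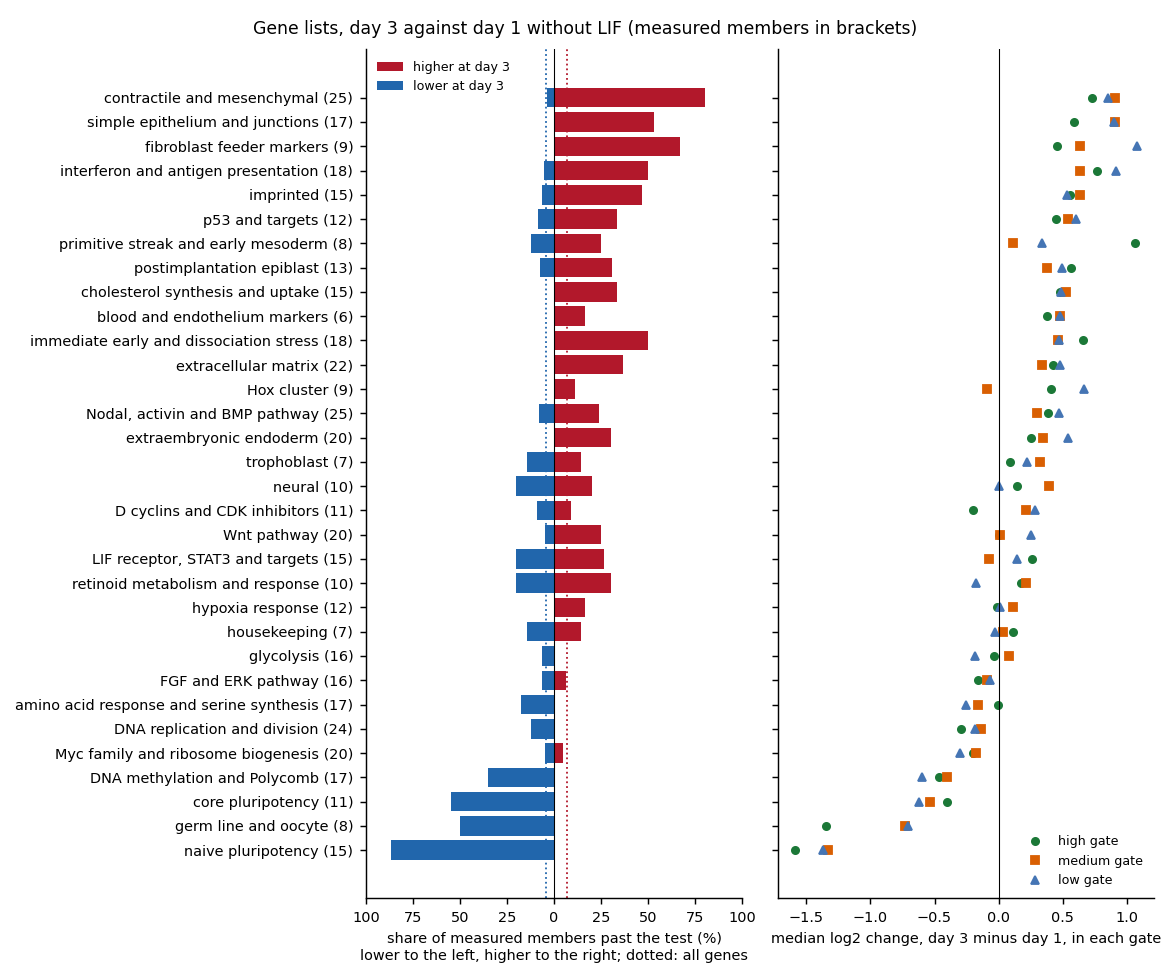
Share of the measured members of 32 gene lists that were past the test at day 3 against day 1 (left, in percent, number of members in brackets) and the median log2 change of each list in each gate (right). Dotted lines mark the shares over all genes, 6.97% higher and 4.09% lower, and the naive list, with 13 of 15 lower, and the contractile list, with 20 of 25 higher, lie at the ends.

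The cytoskeletal and mesenchymal list had 20 of 25 measured members higher, 1 lower and a median of 0.82. The rises covered actin-binding proteins of smooth muscle, tropomyosins, focal adhesion proteins, annexins and matricellular proteins. Tagln (transgelin), an actin-binding protein of smooth muscle and an early differentiation marker, had the largest rise among the genes past the test at the constant used. With a constant of 1, Efemp1 (3.45) and Il33 (3.26) were past the test with larger rises than Tagln (2.95). The Tagln signals were 61.0, 88.2 and 85.5 at day 1 and 524, 680.3 and 617 at day 3, a 7.48-fold rise (2.90 ± 0.12, adjusted p = 0.000967). Controls measured 33.0, 60.4 and 40.1. Cnn1 (calponin), another such protein, went from 13.1, 19.6 and 16.0 to 81.3, 97.7 and 88.6 (2.21 ± 0.12, adjusted p = 0.0012) and was back to 7.33, 15.2 and 2.93 at day 5. Ccn1 (Cyr61), a matricellular protein induced by serum, went from 19.8, 25.1 and 36.0 to 134, 164 and 201 (2.47 ± 0.12), and its relative Ccn2 rose by 1.07 and was at -1.22 at day 5. All 4 had day 3 signals above every day 1 signal. The tropomyosins Tpm1, Tpm4 and Tpm2 rose by 1.68, 1.26 and 0.64, Anxa3 by 1.80, Cald1 (caldesmon) by 1.71, Acta2 (smooth muscle actin) by 1.17 and Twist1, a mesenchymal transcription factor, by 1.20. S100a6 fell by 0.59. Zeb1 (-0.41) and Snai2 (0.33), repressors of E-cadherin, did not pass.

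Many actin and immediate early genes are known targets of serum response factor, which binds the CArG box, so the 250 bases before each RefSeq start (mouse, GRCm38.p6) were searched for that box on both strands. It was found before a start of 1.62% of 27025 genes. Of the 20 risen members of the cytoskeletal list 15 had a promoter in the table and 3 of these held the box, and of the 9 risen immediate early genes, all in the table, 2 did. These are shown in the direction of transcription with the box in capitals, and a match is a description, not a binding site. They lie at chr10:79988514-79988583 (+) for Cnn2, 86 to 17 bases before the start, chr2:156775273-156775342 (+) for Myl9, 191 to 122 before, and chr14:20929148-20929210 (+) for Vcl, 250 to 188 before. For Egr2 the stretch is chr10:67537464-67537533 (+), 102 to 33 before, and for Zfp36 chr7:28379247-28379316 (-), 88 to 19 before.
Cnn2: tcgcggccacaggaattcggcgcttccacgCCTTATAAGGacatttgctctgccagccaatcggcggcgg
Myl9: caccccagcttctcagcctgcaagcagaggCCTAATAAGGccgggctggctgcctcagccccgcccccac
Vcl: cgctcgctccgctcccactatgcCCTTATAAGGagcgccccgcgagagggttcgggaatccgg
Egr2: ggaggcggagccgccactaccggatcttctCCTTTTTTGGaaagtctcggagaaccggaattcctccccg
Zfp36: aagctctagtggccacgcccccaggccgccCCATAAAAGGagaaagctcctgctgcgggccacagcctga
Cnn2, a calponin, measured 112, 114 and 133 at day 1 and 188, 203 and 245 at day 3 (0.80). Myl9, a myosin light chain, went from 83.7, 68.9 and 75.7 to 119, 142 and 116 (0.69) and was at 40.7, 42.6 and 38.1 at day 5. Vcl (vinculin), of focal adhesions, rose by 0.89, and all 3 had no overlap between days.

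The immediate early and dissociation stress list, which includes genes that cell sorting can induce, had 9 of 18 higher and none lower, with a median of 0.44. Fos, a subunit of AP-1, went from 83.2, 105 and 159.9 to 335, 505 and 696 (2.09 ± 0.12, adjusted p = 0.00152), with the high gate lowest and the low gate highest on both days. Controls with LIF measured 216, 346 and 486, above day 1, and day 5 2431, 2735 and 2064. Atf3, a stress-induced factor, rose by 1.61 ± 0.12, Klf6 by 1.31 ± 0.13, Fosb by 1.08, Zfp36, which promotes decay of cytokine mRNAs, by 0.75 and Egr2 by 0.59. Jun (0.04), Egr1 (-0.28), Ier2 (-0.38) and the heat shock genes Hspa1a (0.29) and Dnajb1 (0.14) did not pass. The part of sorting stress in these rises was not tested.

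Matrix genes rose in 8 of 22 cases, with none lower and a median of 0.43. Hspg2 (perlecan), a proteoglycan of basement membranes, went from 35.5, 41.1 and 51.7 to 90.0, 135 and 134 (1.39 ± 0.13), and Serpinh1, the collagen chaperone, from 43.3, 66.6 and 71.9 to 111, 163 and 214 (1.35 ± 0.12, adjusted p = 0.00338). Timp3, an inhibitor of matrix proteases, rose by 0.96 ± 0.12. Fn1 (-0.08), Sparc (0.14) and Lama1 (-0.35) were not past the test.

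Markers of fibroblasts, the feeder cells of the maintenance culture, moved with these groups. Of 9 measured, 6 rose and none fell, with a median of 0.77 and medians of 0.46, 0.64 and 1.08 in the high, medium and low gates. Their summed signal lay between 659 and 735 at day 1, 1549.8 and 1838 at day 3 and 2556 and 2689 at day 5. Tagln and Cald1, which the cytoskeletal list also holds, made up most of the difference, and the other 7 summed to between 415 and 502.5 at day 1, 533 and 631 at day 3 and 696 and 960.5 at day 5, with 4 of them higher and none lower. Dcn (decorin) went from 19.8, 17.4 and 14.5 to 36.1, 31.3 and 35.2 (0.85 ± 0.13) and Col1a1 from 58.8, 76.8 and 48.1 to 99.6, 109.7 and 93.8 (0.71 ± 0.13). Col1a2, which fibroblasts express with Col1a1, measured 265, 282 and 269 at day 1 and 308, 266 and 238 at day 3 (-0.01, adjusted p = 0.954), with overlapping groups. Col3a1, Lum, Postn, S100a4, Mmp3, Lox, Pdgfrb and Prrx1 were not measured. The part of fibroblasts in the cytoskeletal and matrix results was not tested. Of 6 blood and endothelial markers Gata2 rose, by 0.47, and their summed signal was 197 to 218 at day 1 and 270.4 to 359.6 at day 3.

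Of 18 measured antigen presentation genes and interferon targets 9 rose and 1 fell, with a median of 0.64. Gbp2, an interferon-induced GTPase, went from 6.19, 10.5 and 10.8 to 54.1, 52.5 and 61.2, a 4.61-fold rise on the scale with the added constant (2.20 ± 0.15, adjusted p = 0.00198), and reached 1884, 1740.3 and 988 at day 5. B2m, the light chain of class I molecules, went from 81.3, 51.2 and 67.2 to 213, 269 and 296 (1.91 ± 0.20, adjusted p = 0.0057), and Psmb8, an immunoproteasome subunit, from 22.3, 23.3 and 19.3 to 83.3, 83 and 62.9 (1.64 ± 0.12). The lowest day 3 signal of each was above the highest of day 1. The class I heavy chains H2-D1 and H2-K1, which are near-identical in sequence and may share probe signal, rose by 1.62 and 1.21, the peptide transporter Tap1 by 1.00 and the factor Irf1 by 0.64. Ifitm3, an interferon-inducible membrane protein that pluripotent and germ cells also express, went the other way, from 1081, 1046 and 1109 to 332, 494 and 487 (-1.32, adjusted p = 0.00792), and was at 982, 1151 and 1258 at day 5. Irf7 (0.56), Irf9 (-0.30) and Stat2 (-0.14) did not pass, and Isg15, Ifit1 and Ifit3 were not measured.

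The core of the interferon-stimulated response element, GAAANNGAAA on either strand, was found in the 250 bases before a start of 3.46% of the 27025 genes and of 4 of these 9 risen genes. The matches are shown with the element in capitals, in the direction of transcription on the + strand (GRCm38.p6, RefSeq), and the pair of matches before Gbp3 overlap. They are chr2:122147518-122147587 for B2m, 169 to 100 bases before the start, chr3:142620574-142620643 for Gbp2, 89 to 20 before, chr3:142594680-142594749 for Gbp2b, 167 to 98 before, and chr3:142559969-142560043 for Gbp3, 75 to 1 before.
B2m: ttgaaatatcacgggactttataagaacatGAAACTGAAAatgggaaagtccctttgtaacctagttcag
Gbp2: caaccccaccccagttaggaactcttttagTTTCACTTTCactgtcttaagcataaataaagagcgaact
Gbp2b: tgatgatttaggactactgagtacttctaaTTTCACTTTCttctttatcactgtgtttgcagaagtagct
Gbp3: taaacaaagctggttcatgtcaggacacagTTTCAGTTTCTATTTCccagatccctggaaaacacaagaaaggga
Gbp2b and Gbp3, neighbours of Gbp2, rose by 1.86 and 1.16. Gbp2b had signals of 3.71, 1.43 and 2.60 at day 1, near the bottom of the scale, and 19.6, 10.8 and 34.0 at day 3, and Gbp3 went from 13.3, 11 and 14.3 to 25.2, 23.8 and 61.0. At day 5 Gbp2b was at 779, 569.7 and 450.3 and Gbp3 at 456, 323 and 308.

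**Figure D4:**
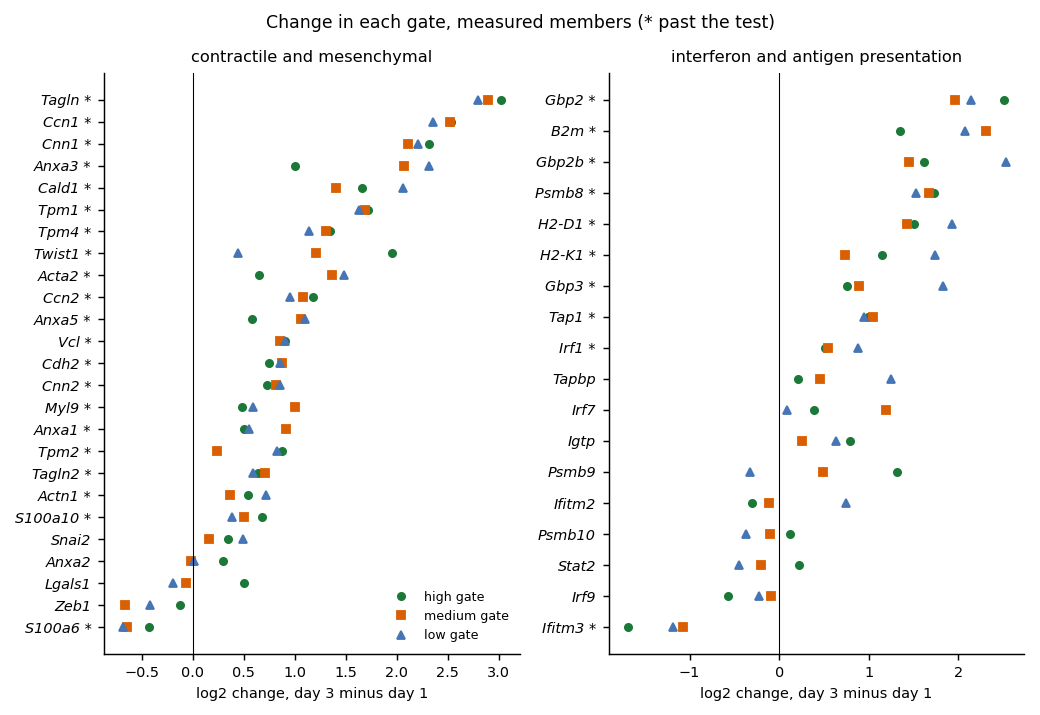
Change from day 1 to day 3 (log2, horizontal axis) of each measured member of the contractile and mesenchymal list (left) and of the interferon and antigen presentation list (right) in each gate. Points are single differences between libraries and stars mark genes past the test, 20 higher and 1 lower of 25 on the left and 9 higher and 1 lower of 18 on the right.

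Of 17 measured members of the DNA methylation and Polycomb list 6 fell, none rose and the median was -0.35. Dnmt3l, the cofactor of the de novo methyltransferases, went from 4005, 3735 and 3717 to 1321, 1738 and 1723 (-1.27 ± 0.17, adjusted p = 0.0449), and Dnmt3a from 549, 439.7 and 390.2 to 315, 276 and 197 (-0.81 ± 0.12). Among subunits of Polycomb repressive complex 2, Mtf2 fell by 1.06 ± 0.12, with all 4 of its probe sets past the test in that direction, Jarid2 by 0.99 ± 0.14, Eed by 0.94 ± 0.11 and the methyltransferase Ezh2 by 0.52. Jarid2 and Dnmt3a each had 1 of 2 probe sets past the test. Eed measured 1056, 1026 and 1163 at day 1 and 573, 547 and 567 at day 3, without overlap. Suz12, the other core subunit, measured 227, 259 and 397 and 247, 230.1 and 338 (-0.09, adjusted p = 0.625). Dnmt1 (-0.24) and Uhrf1 (-0.29), which maintain methylation, did not pass.

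Genes of germ cells and oocytes fell in 4 of 8 cases, with none higher and a median of -1.05. Among the 4 was Stra8, at signals of at most 6.33 in these libraries. Its call was lost at the larger added constant (adjusted p = 0.171 in limma). Ooep, a maternal protein of the oocyte, went from 2075, 2045 and 1851 to 498, 597 and 459 (-1.93 ± 0.15, adjusted p = 0.0304). Rhox5, an X-linked homeobox gene, went from 838, 939 and 1286 to 223, 367 and 374 (-1.67 ± 0.15), and Zp3, a zona pellucida protein, fell by 1.69 ± 0.12. Dazl (-0.01) and Ddx4 (-0.13) did not pass.

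Of 24 replication and division genes 3 fell and none rose, with a median of -0.20, and 10 had all day 3 signals below all day 1 signals, as did 15.7% of all genes. Mybl2 (B-Myb), a transcription factor of the G2 programme, went from 1228, 1341 and 1244 to 368, 379 and 348 (-1.79 ± 0.11, adjusted p = 0.00193), and this was the single member to change by 2-fold. Rrm2 and Cdc6 fell by 0.48 and 0.49, and neither passed with an added constant of 1 (adjusted p = 0.0556 and 0.0565). Mki67 (0.10), Cdk1 (-0.05) and Ccna2 (-0.01) did not pass. Ccnd3 (-0.61) fell and the inhibitor Cdkn2b (0.55) rose among 11 D cyclins and CDK inhibitors, counts near the shares over all genes. Of the Myc family, Mycn went from 1251, 1017 and 1159 to 428, 388 and 499 (-1.38 ± 0.12), Mycl from 35.8, 27.8 and 54.7 to 101, 80.9 and 113 (1.27 ± 0.14) and Myc was not past the test. No ribosome biogenesis gene in the list of 20 passed, and its median was -0.23. Of 12 p53 targets 4 rose and 1 fell, with Ccng1 (cyclin G1) at 1.22 ± 0.12 and Gadd45a, a stress sensor, at -1.07 ± 0.24, while Cdkn1a (0.46) and Mdm2 (0.29) did not pass.

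Metabolic lists split. Cholesterol synthesis had 5 of 15 higher, none lower and a median of 0.46, among them Hmgcs1, early in the pathway, from 308, 322 and 444 to 570.5, 604 and 713 (0.82 ± 0.12), Sc5d (1.21), Msmo1 (0.61), Cyp51 (0.60) and Sqle (0.51). In glycolysis Pfkp, a phosphofructokinase, fell from 349.8, 321 and 394 to 99.9, 108 and 108 (-1.71 ± 0.12, adjusted p = 0.00206) and the other 15 measured members did not pass, with Pfkl at 0.26, Pfkm at 0.31 and a list median of -0.07. A single fall among 16 is near the 4.09% over all genes. Of 12 hypoxia genes 2 rose, Egln1 (0.71) and Ddit4 (0.63), and of 17 amino acid response genes 3 fell, Nupr1 (-1.02), Trib3 (-0.65) and Aars (-0.57). Among 15 imprinted genes 7 rose and 1 fell, with a median of 0.49. Igf2, a fetal growth factor, went from 116, 149 and 237 to 212, 382 and 571 (1.14 ± 0.14), higher towards the low gate on both days so that the days overlapped. Sgce, Ndn and Meg3 rose by 1.17, 1.03 and 1.35, and Peg3, a zinc finger gene, went from 1270.0, 947 and 1148 to 613, 619 and 685 (-0.80) and to 1701, 2005 and 2087 at day 5. Of 7 housekeeping genes B2m rose and Tbp fell, by 0.56, and Actb differed by 0.19 (adjusted p = 0.33).

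Several of the largest rises were of genes outside the lists. Prtg (protogenin), an immunoglobulin-family receptor of the early embryo, went from 75.2, 116 and 157 to 803, 701 and 1066 (2.84 ± 0.20, adjusted p = 0.0304). Efna5, an ephrin ligand, went from 8.03, 21.8 and 44.0 to 189, 195 and 182 (2.80 ± 0.36, adjusted p = 0.0448, and 0.0613 with a constant of 1) and Prom1 (CD133), a pentaspan membrane protein, from 31.7, 37.8 and 43.6 to 283, 254 and 305 (2.78 ± 0.13). Both lay clear of day 1 in all gates. Igfbp3, which binds insulin-like growth factors, went from 46.5, 64.2 and 37.5 to 249.9, 287 and 394 (2.56 ± 0.24). Efemp1 (fibulin 3), a matrix glycoprotein, rose by 2.78 ± 0.15, the cytokine Il33 by 2.69 ± 0.23, the prohormone-processing Cpe by 2.61 ± 0.12 and the membrane peptidase Mme (neprilysin) by 2.49 ± 0.18. Thbs4, a thrombospondin, went from 10.6, 22.0 and 17.5 to 123, 122 and 117 (2.46 ± 0.20) and was at 35.4, 8.89 and 38.4 at day 5.

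The largest falls after Nr0b1 included Mapt (-3.18 ± 0.38), Calcoco2, an autophagy receptor, from 59.6, 56.8 and 73.5 to 4.38, 5.74 and 2.78 (-3.03 ± 0.19), and Lgals9 (galectin 9), from 186, 198 and 172 to 16.4, 27.9 and 32.6 (-2.71 ± 0.20). Calcoco2 remained past the test with the doubted library kept in (-3.02 ± 0.19, adjusted p = 0.00761), since that library measured 61.0, at the level of the other day 1 libraries. Gbx2, a homeobox gene that STAT3 induces in mouse embryonic stem cells, went from 203, 186 and 204 to 36.3, 35.5 and 34.7 (-2.35 ± 0.11, adjusted p = 0.00103), with hardly any spread within a day. It was at 124, 154 and 137 at day 5. Cobl (cordon-bleu), an actin nucleator, went from 915, 749 and 848 to 135, 99.9 and 152 (-2.65 ± 0.15). Calml4 fell by 2.77, Fam25c by 2.69, Lrrc2 by 2.32 and Cabp1, a neuronal calcium-binding protein, by 2.31. Kifc1, a spindle motor, went from 289, 281 and 268 to 19.4, 78.8 and 75.9 (-2.40 ± 0.38) and back to 237, 283 and 249.7. The probe sets of Kifc1, Fam25c, Cpe and Mme carry the suffix f, which the maker gives to probes shared within a gene family, so their values are uncertain. The same holds for Cldn7, Atf3, Socs3, Nfil3, Actb, Actn1, Anxa1 and, among genes of antigen presentation and interferon, H2-D1, H2-K1, Irf7 and Tapbp. Other suffixes occur among the genes named by rule. They are r for Sox2, i for Il33, Mtf2 and Sc5d, g for Pfkp and Igf2, and s for Cnn1, Bmp4, Dab2 and Skil. The bearing of these suffixes on the values was not tested.

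Set beside day 5, the day 3 changes had both continuing and passing courses. Gbp2 was 2.20 above day 1 at day 3 and 6.84 at day 5, Krt19 2.33 and 5.28, and Cdh2 0.82 and 4.05. Cnn1 was at 2.21 and -0.81, Thbs4 at 2.46 and 0.43, Sfrp2 at 1.03 and -0.33, and Myl9 at 0.69 and -0.85. Among the falls, Bcl3 was at -1.78 and 0.67, Gbx2 at -2.35 and -0.51, Cabp1 at -2.31 and 1.25, and Bmp4 at -1.07 and 1.41. The day 3 level of the last 8 genes, which were picked after their values were seen, lay outside that of both other days. Day 3 was also scanned apart from both, and whether the level is that of the day or of the scan cannot be told apart for such genes.

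**Figure D5:**
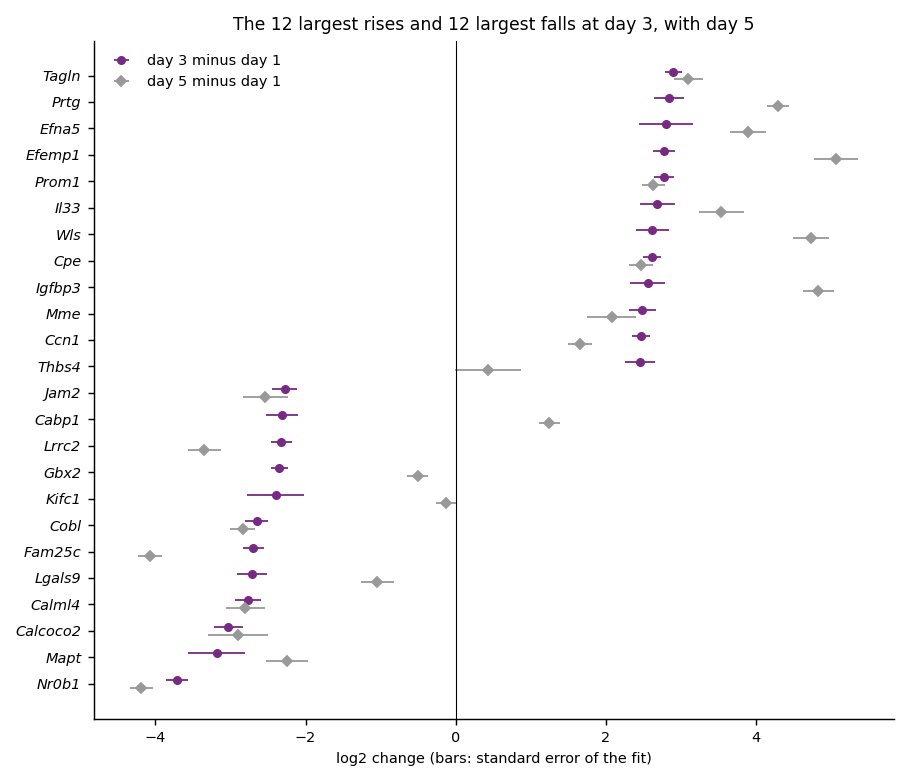
Log2 change against day 1 at day 3 (circles) and day 5 (diamonds) of the 12 genes with the largest rises and the 12 with the largest falls at day 3. Bars are standard errors of the fit with 3 libraries a day, both changes use the same day 1 libraries, and Cabp1 (-2.31 and 1.25) has opposite signs on the 2 days.

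Changes were compared along the gates to ask whether cells that had kept more reporter differed in their response. No probe set of the 14901 passed (0%), with 583 at an unadjusted p under 0.05 in limma and a smallest adjusted p of 0.414. The test had little power. On simulated data where few probe sets carried known low minus high differences, it recovered 0% of those of 2 log2 units on either chip. Of those of 4 log2 units it recovered 51.5% on chip A and 0% on chip B. The lack of calls therefore does not show that the gates responded alike. The genes with the smallest p included Scx (scleraxis), a factor of tendon precursors, which measured 32.2, 67.7 and 106 at day 1 and 269.9, 173 and 78.0 at day 3. It was higher at day 3 in the high gate and lower in the low gate, with a low minus high difference of -3.35 ± 0.39 (adjusted p = 0.414). Lama1, a laminin chain, had 52.2, 68.4 and 76.7 at day 1 and 19.6, 51.7 and 117 at day 3, the opposite order (1.83 ± 0.35, adjusted p = 1). Prr5 and Anks3 also had more positive changes in the low gate, by 2.79 ± 0.52 and 3.37 ± 0.55, as did Sprr1a (2.26 ± 0.48). For Nfil3, Abcb8 and Dmrtc1a the difference was -2.33 ± 0.42, -3.10 ± 0.57 and -3.62 ± 0.59, a more negative change in the low gate. None of these 8 genes was past the test from day 1 to day 3.

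Counting libraries rather than testing, all day 3 signals lay above all day 1 signals in 1968 genes (20%) and below them in 1539 (15.7%). The naive list had 14 of 15 members below, the core list 7 of 11, the contractile list 18 of 25 above and the epithelial list 11 of 17 above. Replication and division genes had 1 of 24 above, beside the 10 below, and ribosome biogenesis and Myc genes 10 of 20 below and 1 above. With the doubted library kept in, the medians were -1.28 for the naive list, -0.46 for the core list, 0.63 for the contractile list, 0.62 for the epithelial list and 0.57 for the interferon list, each of the same sign as without it. Of the 32 lists 29 kept the sign of their median, and it turned for the retinoid list (0.07 to -0.17), the Hox list (0.40 to -0.03) and the hypoxia list (0.03 to -0.0048).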

How the data were processed

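The deposited signal intensities, linear values above 0 for each probe set, came from MAS5 as run by the authors, per the submitters' processing notes (version not given in the sources used here). Each array's 2% trimmed mean was the same within a chip (150.1 on chip A, 150.0 on chip B), so no further normalization was applied. Members, gene lists and tests were chosen with earlier results of these data known, and the list counts are descriptions. Values were log2 transformed after adding 4 (chip A) or 7 (chip B), 0.1 of the chip's median, and the 60% of probe sets brightest over all 18 libraries entered the tests (7454 of chip A, 7447 of chip B). A paired model (gate as a block) was fitted in R 4.3.3 with limma 3.58.1 (lmFit, eBayes), and p-values were adjusted by Benjamini-Hochberg within each chip. The pairing comes from the reporter gates that the labels give. Day 5 against day 1 was fitted likewise, and the gate difference with the gate as a number. The scripts were tested on simulated data, with 66 or 67 probe sets a chip changed by each of several known amounts. Changes of 1 log2 unit from day 1 to day 3 were recovered in 44.8% of cases on chip A and 1.49% on chip B. For 2 log2 units these shares were 74.2% and 42.4%. Few probe sets were changed there, and the adjustment depends on the share that changes, so the recovery in the real data may differ. A gene that did not pass, above all on chip B, may therefore still have changed.

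Gene symbols came from GEO's platform annotation, checked by Entrez identifier against RefSeq genes of GRCm38.p6. Control probe sets aside, chip A had 12422 probe sets, of which 10833 carried 1 symbol, 396 several and 1193 no symbol. On chip B these numbers were 12411, 10581, 178 and 1652. A gene was taken by 1 probe set, preferring chip A and then the brighter one, and of the 1087 called genes 314 had more than 1, of which 78 had another called the same way and 5 another called the opposite way. Among genes named by rule, 1 probe set of 3 was called for Sox4, Mybl2, Tpm1 and Cald1. It was 1 of 2 for Nanog, Wls, Lgals9, Cobl, Bcl3, Il6st, Hand1 and Jarid2. The same held for Dnmt3a, Skil, Fzd2, Dusp6, Ccnd3, Egln1, Cyp51 and Meg3. The 32 lists hold 582 genes, 434 of them measured.

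Genes were named by a rule: the 12 largest rises and 12 largest falls past the test and the same way in all gates, per list the called members of smallest p (4 at most), 4 and 4 genes of the gate difference by p, and Pou5f1, Nanog, Sox2, Zfp42, Klf4, Socs3, Dnmt3b, Otx2, Gata6, Krt18 and Cyp26a1. Other list members are named beside these after their values were seen.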

Additional observations from a re-analysis of the deposited data

Results flagged for a closer look

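Among the 4 libraries labelled day 1 without LIF, high gate replicate 2 lay far from the others in 31 of the 126 named genes, by a gap to the nearest of the other 3 that exceeded Dixon's critical share of the group's whole range. Chance marks about 1 in 20 such groups where the genes are not selected. Most of these genes were named through a fit without this library, which favours a small spread among the other 3. That rate is therefore no yardstick here. No other day 1 library was marked for any of these genes, which the same selection favours. The values below are the log2 level of high gate replicate 2 minus the mean of the other 3.

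It was higher for the RA-responsive genes Stra8 (6.26) and Cyp26a1 (4.81), at a Stra8 signal of 685 where the other 3 measured at most 6.33. It was lower for the pluripotency genes Pou5f1 (-1.09), Utf1 (-1.35), Nr0b1 (-3.14), Klf4 (-1.84), Jam2 (-1.79) and Fgf4 (-1.87), for the chromatin genes Dnmt3b (-1.58) and Eed (-1.03), for Ooep (-1.24), and for the growth and replication genes Mycn (-2.35), Mybl2 (-1.69) and Cdc6 (-0.73). It was also lower for Cobl (-3.35), Lrrc2 (-2.68), Mapt (-2.36), Lgals9 (-1.95) and Kifc1 (-1.17). It was higher for Il33 (4.88), Cpe (2.56), Sgce (1.64) and Ndn (1.33), for the signalling genes Wnt3 (1.15) and Dusp6 (1.70), for the stress and early response genes Atf3 (1.76), Klf6 (1.23) and Btg2 (0.82), and for Sc5d (1.55), Psmb8 (1.38) and Gbx2 (1.02).

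In 29 of the 31 genes the library departed from the other 3 in the direction of the change to day 3, the exceptions being Stra8 and Gbx2. Most of these genes were named for changes measured from those other 3, which favours that direction. The share over all genes was not analysed. The doubted library was scanned on another day than the other 3, with a control library. It was left out of the comparison by the rule, so these values are descriptions.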

How the results depend on the processing

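The comparison rests on leaving out the doubted day 1 library. With it kept in, 3 probe sets were higher and 1 lower, against 949 and 505 without it, and 4 of the 1454 called probe sets were called again, though 1452 kept their direction. Cyp26a1 reversed there, to -0.28, and in a fit over all 18 libraries, to -0.41. That fit called 269 higher and 237 lower, and a fit over 17 libraries without the doubted library 1372 and 846. Adding a random block for scan day to the latter (consensus correlation 0.20 on chip A and 0.12 on chip B) left 582 higher and 360 lower, with 632 of the 1454 called again. Without a filter on dim probe sets, which adds tests, 122 were higher and 52 lower, and among the 40% brightest 1175 and 931. Quantile normalization gave 515 and 539, a trended and robust eBayes 1592 and 1214, a larger added constant (0.4 of the median) 1311 and 769, and a constant of 1 842 and 430. Leaving out a gate pair, which leaves 2 pairs, gave 277 to 294 higher and 119 to 158 lower. Without the replicate block, that is with the paired gates ignored, 944 were higher and 532 lower. Apart from the fits that include the doubted library, every setting kept the direction of all called probe sets that it measured. Single named genes lost their call under settings that kept the same 6 libraries. These were Stra8 and Cdkn2b with the larger constant, and Efna5, Hand1, Rrm2, Cdc6 and Tbp with a constant of 1. Under quantile normalization they were Sox2 (adjusted p = 0.0518), Pou3f1, Hand1, Hoxb7, Dusp6, Rrm2, Cdc6, Cdkn2b, Gadd45a, Cyp51, Cyp26a1 and Gata2, and under the trended and robust eBayes Cdh2, Stra8, Cdkn2b, Dhrs3, Cyp26a1 and Gata2. Without the replicate block they were Il6st, Pou3f1, Dab2, Tfap2c, Dusp6, Rrm2, Cdkn2b, Gadd45a, Cyp51, Dhrs3 and Igf2. The gate difference had 1 call among the 40% brightest probe sets (346 at an unadjusted p under 0.05 in limma), and 0 elsewhere. The causes of these shifts were not tested beyond the number of tests and samples. The number of arrays and, for dim genes, the signal over background limit all values.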
